A study of Mus musculus with 2 samples.

Results

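The amino acid stress response was followed through 9 genes in 2 sections of B16.F10 melanoma, a transplantable pigmented mouse tumour line. They were chosen by name as Atf4 and 8 genes that ATF4 is known to induce: Asns, Chac1, Trib3, Ddit3, Sesn2, Psat1, Phgdh and Slc7a11. All 9 were in the data, out of 19454 gene symbols (19465 gene IDs). The files list Ddit3 under 2 gene IDs, which were summed and are also given apart.

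When amino acids run short, the endoplasmic reticulum is loaded with unfolded protein or haem is lacking, kinases phosphorylate the initiation factor eIF2. General translation then slows while the mRNA of Atf4 is translated better. The ATF4 protein, a bZIP transcription factor, pairs with C/EBP family members and switches on genes that make amino acids, import them, charge tRNAs and limit growth, and under lasting stress genes that favour cell death. Solid tumours often show this response in poorly perfused areas, where Car9, a carbonic anhydrase induced by hypoxia-inducible factor, is a common marker of low oxygen.

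The KO section came from a tumour grown in a Foxp3-Cre x CK2b-fl/fl mouse, in which Cre driven by Foxp3 removes Csnk2b, the regulatory subunit of protein kinase CK2, from regulatory T cells. The WT section came from a tumour in a mouse whose genotype label reads wild-type and which is titled Csnk2bfl/fl, a floxed allele with no Cre named. In both hosts the tumour cells keep Csnk2b. Per the labels the untreated mice were 8 to 16 weeks old, and tumours of similar size were taken on day 15 after B16.F10 cells were injected, fixed and embedded in paraffin, and cut at 10 µm. Each genotype is represented by 1 section of 1 tumour, so no difference between genotypes has a replicate check, and no test or p-value was computed.

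Gene expression was read with Visium CytAssist, which hybridises probe pairs to the transcripts in the tissue, joins each pair and captures the product on a grid of barcoded spots. A spot is a small area that can hold several cells of different types. The KO section had 2746 spots under tissue with 94422680 unique molecular identifiers (UMIs), and the WT section had 3066 spots with 88735936 UMIs. The sections shared 2138 spot barcodes, which mark positions on the slide grid and not shared cells. Melanoma-dense spots were those where melanocytic genes such as Pmel, Dct and Tyrp1 made up at least 4.61% of UMIs, the median over all spots. The KO section had 1607 such spots (58.5%) and the WT section 1299 (42.4%), with medians of 42913 and 36192 UMIs per spot. All 12 measured melanocytic genes were present in them, with summed levels of 54982 CPM in the KO section and 53134 CPM in the WT section. CPM is a gene's UMI count over a set of spots, scaled to the total UMIs of those spots. Since probes differ between genes, CPM was compared within a gene and not between genes.

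ATF4 and its C/EBP partners bind composite elements known as C/EBP-ATF response elements. RefSeq promoters of GRCm38.p6, each reaching from 250 bases before to 50 bases after a start site, were searched for TGATGNAA on both strands. No other motif was searched. All 9 genes had a promoter, 10 in all because Psat1 had 2, and Asns, Chac1, Trib3 and Slc7a11 held a match. A match was present in 3.97% of all 32851 promoters and in 4.51% of 27025 genes. The matches are shown because these 4 genes come from different roles in the pathway and share the element in the window, whereas Atf4, Ddit3, Sesn2, Psat1 and Phgdh had none in theirs. Capitals mark the match, read 5′ to 3′ on the gene's strand. The Chac1 and Trib3 matches and the Slc7a11 match nearer the start site lie on the opposite strand. Their capitals are therefore the reverse complement of the letters searched.
Asns, chr6:7693210-7693269, minus strand: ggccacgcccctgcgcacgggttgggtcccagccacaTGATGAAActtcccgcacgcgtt
Chac1, chr2:119351023-119351082, plus strand: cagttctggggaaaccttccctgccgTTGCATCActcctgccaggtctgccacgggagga
Trib3, chr2:152344028-152344057, minus strand: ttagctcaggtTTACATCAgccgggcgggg
Slc7a11, chr3:50443646-50443705, minus strand: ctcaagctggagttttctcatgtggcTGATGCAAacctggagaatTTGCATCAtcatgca
The Asns match began 23 bases and the Chac1 match 193 bases before the start site, and the Slc7a11 matches began 66 and 47 bases before it. The Slc7a11 start site used, at base 50443613 of chromosome 3, lies 55474 bases inside the gene interval that RefSeq gives, which reaches further upstream. The Trib3 match began at base 15 of the transcript. A match of these letters describes the sequence and was not tested as a binding site.

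In melanoma-dense spots 8 of the 9 genes were lower in the KO than in the WT section, and Ddit3 was the exception. Values are given as CPM with exact Poisson 95% intervals in the plot of levels, and ratios carry exact conditional binomial 95% intervals. These intervals cover counting error only. The spread inside a section is the range over its 4 quadrants, which held 80 to 556 melanoma-dense spots in the KO and 103 to 585 in the WT section. In sums over spots, fewer stressed cells and less RNA per cell cannot be told apart.

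Atf4 (chromosome 15, 80255184 to 80257545), the transcription factor itself, stood at 455 CPM in the KO section and 577 CPM in the WT section, a KO over WT ratio of 0.789 (0.776 to 0.801). Its 4 KO quadrants lay between 427 and 481 CPM and its WT quadrants between 495 and 650.1 CPM, so the ranges did not overlap. ATF4 activity depends on translation of this mRNA, which was not measured.

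The serine synthesis enzymes stood further apart. Psat1 (chromosome 19, 15905123 to 15925059), the aminotransferase of the pathway, was at 159 CPM in the KO and 331 CPM in the WT section, a ratio of 0.481 (0.470 to 0.493). Phgdh (chromosome 3, 98313171 to 98339969), which catalyses the entry step from glycolysis, was at 119 CPM in the KO and 225 CPM in the WT section, a ratio of 0.531 (0.516 to 0.546). For neither gene did any KO quadrant reach a WT quadrant: Psat1 spanned 129 to 171 CPM in KO and 191 to 366 CPM in WT quadrants, and Phgdh 108 to 130.2 CPM in KO and 176 to 234 CPM in WT quadrants. Asns (chromosome 6, 7675165 to 7693209), which makes asparagine from aspartate, was at 152 CPM in the KO and 205 CPM in the WT section, a ratio of 0.741 (0.722 to 0.762). Its quadrants overlapped, at 119 to 159.7 CPM in KO and 144 to 245 CPM in WT.

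Slc7a11 (chromosome 3, 50364936 to 50499087) encodes the light chain of the cystine importer and supplies cysteine for glutathione. It was sparse, with 216 UMIs (3.11 CPM) in KO and 433 UMIs (8.47 CPM) in WT melanoma-dense spots, and its ratio of 0.367 (0.310 to 0.433) was the lowest of the 9. Its KO quadrants held 2.18 to 3.23 CPM and its WT quadrants 5.76 to 12.7 CPM. Chac1 (chromosome 2, 119351242 to 119354326), an enzyme that degrades glutathione, was at 72.7 CPM in the KO and 119.8 CPM in the WT section, a ratio of 0.607 (0.585 to 0.630). Its quadrants of 66.8 to 75.5 CPM in KO and 80.6 to 143 CPM in WT did not overlap.

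Sesn2 (chromosome 4, 132492804 to 132510456), a leucine sensor that restrains mTORC1, stood at 21.1 CPM in the KO and 46.0 CPM in the WT section, a ratio of 0.458 (0.429 to 0.489). Its quadrants were 19.9 to 22.6 CPM in KO and 32.5 to 59.6 CPM in WT. Trib3 (chromosome 2, 152337425 to 152344060), a pseudokinase that damps ATF4 signalling, was at 76.0 CPM in the KO and 113 CPM in the WT section, with a ratio of 0.676 (0.651 to 0.702). Quadrants ran from 60.8 to 81.7 CPM in KO and from 90.8 to 152 CPM in WT. Both genes were thus lower in every KO quadrant than in any WT quadrant.

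Ddit3 (chromosome 10, 127290793 to 127296291) encodes CHOP, the factor tied to cell death under lasting stress. It stood at 526 CPM in the KO and 479 CPM in the WT section, a ratio of 1.10 (1.08 to 1.12) that turned below 1 when TMM or median-of-ratios factors set the scale (log2 -0.09 and -0.11). Quadrants overlapped, at 496 to 567 CPM in KO and 395 to 617 CPM in WT. Its 2 gene IDs ran opposite ways. ENSMUSG00000025408 was at 214 CPM in the KO and 252 CPM in the WT section, a ratio of 0.851 (0.831 to 0.871), and ENSMUSG00000116429 was at 312 CPM in the KO and 227 CPM in the WT section, a ratio of 1.38 (1.34 to 1.41). Over melanoma-dense spots the IDs correlated with each other at r = 0.67 in the KO and r = 0.53 in the WT section. The direction of Ddit3 between sections is therefore not settled by these files.

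**Figure D1:**
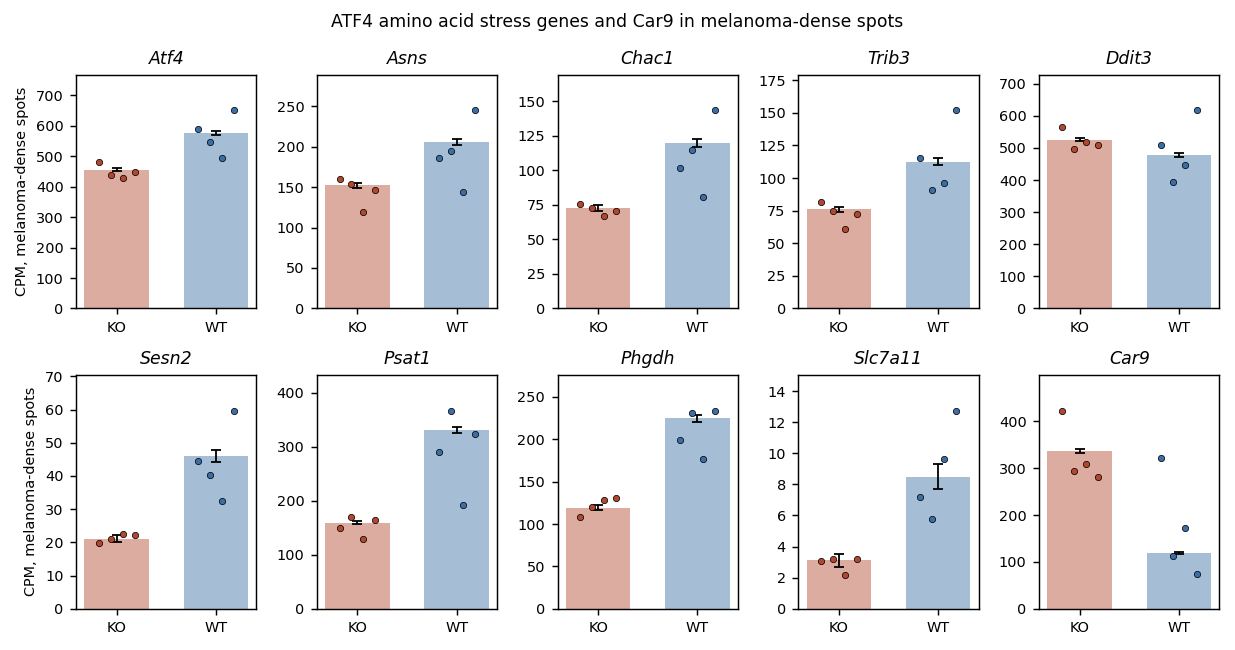
CPM of the 9 genes and Car9 in melanoma-dense spots of the KO (left, red) and WT (right, blue) section. Bars are section values with exact Poisson 95% intervals and points are the 4 quadrants of a section; the KO points lie below all WT points for 7 of the 9 genes, and for Asns, Ddit3 and Car9 the points overlap.

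Read as a group, 5 of the 9 genes had a ratio of at most 1/1.5, against 5.77% of the 14500 genes with at least 50 UMIs, and 0 of 9 had a ratio of at least 1.5, against 18.5%. A ratio below 1 was found for 8 of 9 genes and for 41.1% of all genes. In 7 of 9 genes all KO quadrants lay below all WT quadrants, which held for 13.4% of genes. Among the 9976 genes with at least 500 UMIs, as all 9 are, 5.59% had a ratio of at most 1/1.5 and 4.36% of at least 1.5. All KO quadrants lay below all WT quadrants for 18.1% of them. The share below 1 and the median ratio were not computed for these 9976 genes. The median log2 ratio of the 9 was -0.72 and that of the 14500 genes with at least 50 UMIs 0.10. TMM factors lower every log2 ratio by 0.22 and median-of-ratios factors by 0.25, which leaves the gap to the median gene as it is.

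Markers of cells other than melanoma also differed between these spots, in both directions. All 16 macrophage and monocyte genes had a KO over WT ratio below 1, 11 of them at most 1/1.5, and their summed level was 943 CPM (quadrants 817 to 1130) in the KO and 1294 CPM (quadrants 1137 to 1863) in the WT section. The 16 fibroblast and matrix genes summed to 876 CPM (763 to 1155) in the KO and 1512 CPM (897 to 4749) in the WT section. T cell genes ran the other way: 12 of 13 were higher in the KO section, 10 by at least 1.5 times. The T cell list summed to 50.1 CPM (40.8 to 97.3) in the KO and 31.2 CPM (22.9 to 59.3) in the WT section. All T cell genes but Thy1 were sparse, from 57 UMIs (Cd5) to 541 UMIs (Trbc2) over both sections. Of the 14500 genes with at least 50 UMIs, 41.1% had a ratio below 1, 5.77% lay at or below 1/1.5 and 18.5% reached 1.5. Of those with at least 500 UMIs 4.36% reached 1.5, so sparse genes reached it more often. All 5 measured erythroid genes reached 1.5, and their list summed to 1244 CPM (774 to 1704) in the KO and 162 CPM (87.1 to 335) in the WT section. Vessel genes were near even, at 501 CPM (461 to 601) in the KO and 571 CPM (512 to 699) in the WT section. Single genes made up a large part of some sums, so the sums do not measure amounts of a cell type. Apoe held 651 CPM in the KO and 839 CPM in the WT section of the macrophage and monocyte sum. Sparc held 562 and 733 CPM of the fibroblast and matrix sum, and Eng 253 and 313 CPM of the vessel sum. None of these markers was at 0 in either section. Their part in the ratios of the 9 genes was not tested. In spots low in stromal, immune, vessel and muscle genes the median log2 ratio of the 9 genes was -0.75, with 8 of 9 again below 1.

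Other genes of the pathway were read from lists by function. The shares over all genes with at least 50 UMIs were 41.1% below 1, 5.77% at or below 1/1.5 and 18.5% at or above 1.5. Among serine, glycine and one-carbon genes 8 of 14 had a ratio of at most 1/1.5 and none reached 1.5 (median log2 ratio -0.60). Shmt2, the mitochondrial serine hydroxymethyltransferase, was at 139 CPM in the KO and 375 CPM in the WT section, a ratio of 0.372 (0.363 to 0.381). Aldh18a1, which starts proline synthesis, was at 158 CPM in the KO and 379.7 CPM in the WT section, a ratio of 0.415 (0.406 to 0.425). Mthfd2, the mitochondrial folate dehydrogenase, had a ratio of 0.747, while Mthfd1, its cytosolic relative, had the highest ratio of the list at 1.11.

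The cytosolic aminoacyl-tRNA synthetases, which load amino acids onto tRNAs, were lower by less. Of 17 genes 14 had a ratio below 1 but only Vars, at 0.642, lay at or below 1/1.5, and the median log2 ratio was -0.28. Amino acid transporters were mixed: 6 of 10 had a ratio below 1, and Slc6a9, a glycine transporter, was lowest at 0.594. Slc7a5, the main leucine importer, stood at 1.28, and Slc36a4 was highest at 1.40. The 15 eIF2 kinases and eIF2 control genes had a median log2 ratio of 0.01, with 3 genes at or above 1.5 and 1 at or below 1/1.5.

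Among 18 further ATF4 partners and ATF4-induced stress genes 7 had a ratio of at most 1/1.5 and 3 of at least 1.5. Atf5, a close relative of Atf4, was at 78.1 CPM in the KO and 291 CPM in the WT section, a ratio of 0.268 (0.260 to 0.277). Vegfa, the angiogenic factor that hypoxia also induces, was at 341 CPM in the KO and 154 CPM in the WT section, a ratio of 2.21 (2.16 to 2.27). Ddit4, an mTORC1 inhibitor induced by both ATF4 and hypoxia, had a ratio of 1.70, and Nupr1, a small stress-induced chromatin protein, one of 0.451. The ATF6 and XBP1 arm of the endoplasmic reticulum response had a median log2 ratio of -0.12, with 13 of 19 genes below 1, 5 at or below 1/1.5 and 0 at or above 1.5. Its chaperone Hsp90b1 stood at 0.918 and Hspa5 at 0.678, and the lowest and highest ratios were 0.522 for the chaperone Hyou1 and 1.09 for Ern1, the stress sensor that splices Xbp1.

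The hypoxia and glycolysis genes stood on the other side: 11 of 14 genes reached a ratio of 1.5, and the median log2 ratio of the list was 1.05. Vegfa (2.21) and Ndrg1 (1.12) are in this list and also among the ATF4 partners and ATF4-induced stress genes. Car9 was at 338 CPM in the KO and 119 CPM in the WT section, a ratio of 2.84 (2.76 to 2.92), although its quadrants overlapped at 282 to 423 CPM in KO and 75.2 to 322 CPM in WT.

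**Figure D2:**
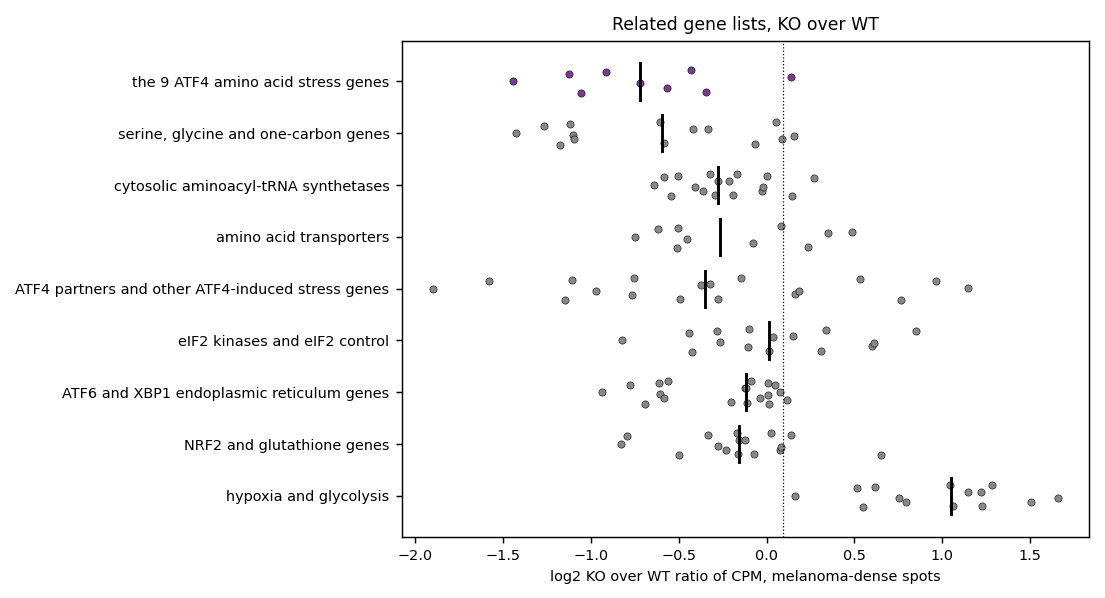
Log2 KO over WT ratio of CPM in melanoma-dense spots for each gene (points) of the 9 ATF4 amino acid stress genes (purple) and of related lists (grey), with the list median as a black bar and the median of all genes (0.10) as a dotted line. The medians run from -0.72 for the 9 genes to 1.05 for the hypoxia and glycolysis genes. Vegfa, Ndrg1 and Slc3a2 are each drawn in more than 1 list.

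Within the sections the 9 genes split by their relation to Car9. Expression per spot was taken as the natural log of 1 plus UMIs per 10000, and Pearson correlations were computed over the 1607 KO and 1299 WT melanoma-dense spots. Spots of a section share 1 library and neighbouring spots share tissue, so these are descriptions without a p-value. Ddit3 followed Car9 most closely, at r = 0.68 in the KO section (0.38 to 0.73 over quadrants), where it ranked 16 of 12880 genes, and at r = 0.34 in the WT section (0.24 to 0.57), where it ranked 65 of 11516. In the KO section Trib3 (r = 0.51), Atf4 (r = 0.49), Chac1 (r = 0.41) and Asns (r = 0.23) also lay above 0.2, which makes 5 of 9 genes against 2.28% of all genes. Among WT spots r was 0.19 for Trib3, 0.14 for Atf4, 0.05 for Chac1 and -0.02 for Asns, and only Ddit3 lay above 0.2, against 1.9% of all genes. Shares and ranks of correlations, here and for vessel genes, are over all genes with at least 50 UMIs in the spots compared. Each of the 5 genes held at least 5057 UMIs (Chac1) in KO spots. No share was computed among genes of similar depth, so these shares do not allow for depth.

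The serine enzymes went the other way, with weak correlations. Psat1 had r = -0.13 in the KO and -0.16 in the WT section, and Phgdh -0.15 in both. In the KO section all 4 quadrants were negative for both genes. WT quadrant 3, with 148 melanoma-dense spots, gave r = 0.28 for Psat1 and 0.33 for Phgdh, whereas the other 3 WT quadrants were negative. Sesn2 (r = 0.07 in KO, -0.02 in WT) and Slc7a11 (r = 0.07 in KO, 0.14 in WT) are sparse in single spots, and weak correlations of such genes show little.

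Sums over spots gave a similar order. Melanoma-dense spots were ranked by Car9, and the highest (Car9-high) were set against the lowest (Car9-low), 402 spots each in the KO and 325 each in the WT section. In KO spots Trib3 stood at 126 CPM in the Car9-high and 37.5 CPM in the Car9-low set, a ratio of 3.36 (3.08 to 3.66). Ddit3 stood at 887 CPM in Car9-high and 306 CPM in Car9-low KO spots, a ratio of 2.90 (2.81 to 2.99). Further KO ratios were 2.44 for Chac1, 1.69 for Atf4, 1.49 for Asns and 1.30 for Sesn2, against 0.861 for Psat1 and 0.810 for Phgdh. The sparse Slc7a11, at 3.54 CPM in Car9-high and 2.27 CPM in Car9-low KO spots, had a ratio of 1.56 with a wide interval (1.02 to 2.38).

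The WT section gave smaller differences for most of the genes. Trib3 had a ratio of 1.68 (147 against 87.5 CPM) and Ddit3 of 1.66 (637 against 383 CPM). Slc7a11 had a ratio of 2.06 (1.54 to 2.76). The others were 1.27 for Chac1, 1.20 for Atf4, 1.08 for Sesn2, 1.06 for Asns, 0.918 for Phgdh and 0.816 for Psat1. A ratio of at least 1.5 was reached by 5 of 9 genes in the KO section, against 4.02% of all genes, and by 3 of 9 in the WT section, against 4.28%. None of the 9 lay at or below 1/1.5, against 7.88% of genes in the KO and 1.68% in the WT section. Whether the 2 sections differ in these ratios was not tested. Both IDs of Ddit3 shared its pattern, with KO ratios of 2.84 and 2.94 and WT ratios of 1.72 and 1.61.

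Other measures moved with Car9 too. Car9-high spots had fewer UMIs than Car9-low spots, with medians of 34349 and 50989 in the KO and 28555 and 46059 in the WT section. Col1a1, a fibroblast collagen, was 0.299 times as high in Car9-high as in Car9-low spots of the KO section and 2.29 times as high in the WT section. Hbb-bs, a haemoglobin gene of red cells, was at 0.273 times in the KO and 3.56 times in the WT section. Their part in the correlations was not tested. With total UMIs and melanocytic share held constant, r with Car9 was 0.65 in the KO and 0.38 in the WT section for Ddit3, and 0.51 in the KO and 0.18 in the WT section for Atf4. It was -0.035 in the KO and -0.10 in the WT section for Psat1, and -0.078 and -0.11 for Phgdh. Over all spots under tissue r was 0.028 in the KO and 0.032 in the WT section for Psat1, and -0.066 and -0.026 for Phgdh. Thinned to 5000 UMIs per spot, r of Ddit3 with Car9 was 0.41 in the KO and 0.18 in the WT section.

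Summed vessel genes, 15 markers of endothelial cells, correlated negatively in the KO section with the 5 genes that lay above 0.2 with Car9. Their correlation was -0.37 for Ddit3, -0.36 for Atf4, -0.31 for Trib3, -0.27 for Chac1 and -0.20 for Asns, and between -0.06 and 0.03 for Sesn2, Psat1, Phgdh and Slc7a11. In KO spots 4 genes lay at or below -0.2, against 0.785% of all genes with at least 50 UMIs. They were Ddit3, Atf4, Trib3 and Chac1, with Asns just outside at -0.199. WT values ran from -0.17 for Atf4 to -0.01 for Phgdh, and 0 of 9 passed -0.2, against 0.0696% of all genes. Trib3 was at 50.4 CPM in the 402 KO melanoma-dense spots richest in vessel genes and at 105 CPM in the 402 poorest, a ratio of 0.478 (0.440 to 0.519). Chac1 (0.517) and Ddit3 (0.547) were the other genes at or below 1/1.5 there, 3 of 9 against 1.49% of all genes. WT ratios ran from 0.790 for Chac1 to 0.958 for Phgdh, and 0 of 9 passed, against 0.955%. Over all spots under tissue the median r of the 9 genes with vessel genes was above 0, at 0.044 in the KO and 0.10 in the WT section, so the negative values hold for melanoma-dense spots.

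**Figure D3:**
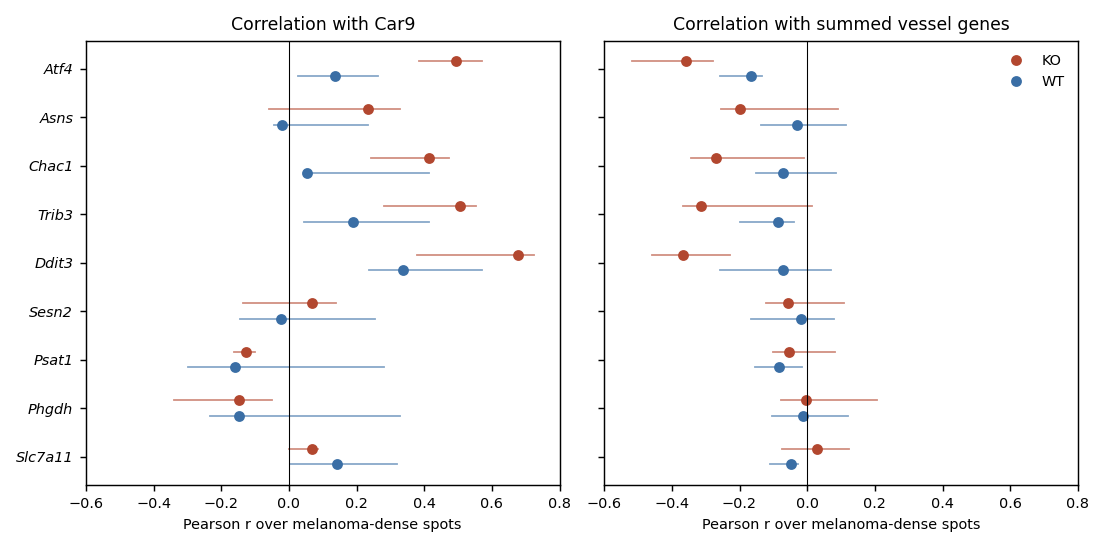
Pearson r over melanoma-dense spots of each of the 9 genes with Car9 (left) and with summed vessel genes (right), for the KO (upper, red) and WT (lower, blue) section. Points are section values and lines the range over 4 quadrants; in the KO section Ddit3, Trib3, Atf4 and Chac1 lie at 0.41 to 0.68 with Car9 and at -0.37 to -0.27 with vessel genes.

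The spot maps place these values over the whole sections. In the KO section Ddit3 and Atf4 were high in patches of the upper tumour and in a band along 2 areas of spots with under 5000 UMIs, where Car9 was high as well. To measure this, spots within 2 grid steps of a low-UMI spot were set against the other spots, leaving out all spots under 5000 UMIs, a comparison added after the maps were seen. It held 476 and 1914 spots in the KO and 324 and 2347 in the WT section, with medians of 19816 and 42652 UMIs in KO and 12746 and 32203 in WT.

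Car9 was higher beside low-UMI spots in both sections, at 892 against 312 CPM in the KO and 299 against 127 CPM in the WT section. In the KO section Slc7a11 stood at 11.5 CPM beside low-UMI spots and 3.73 CPM elsewhere, a ratio of 3.07 (2.50 to 3.76). Trib3 had a KO ratio of 1.41, Atf4 of 1.20 and Ddit3 of 1.18, while Phgdh was lower there at 0.686. In the WT section Car9 was higher beside low-UMI spots but Ddit3 (0.823), Atf4 (0.806) and Trib3 (0.631) were lower. These are ratios of sums, and correlations with Car9 were not computed among the spots beside low-UMI spots. Of the 9 genes 6 in the WT section had a ratio of at most 1/1.5, against 7.83% of all genes: Phgdh 0.417, Chac1 0.493, Psat1 0.504, Asns 0.601, Trib3 0.631 and Sesn2 0.647. In the KO section 0 of 9 did, against 5.8%. Slc7a11 alone reached 1.5 there, against 16.8% of all genes, and 0 of 9 reached it in the WT section, against 20.8%. Melanocytic genes made up 3.95% of UMIs beside low-UMI spots and 5.15% elsewhere in the KO section, and 2.85% and 4.45% in the WT section. The part of this difference in tumour content was not tested.

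**Figure D4:**
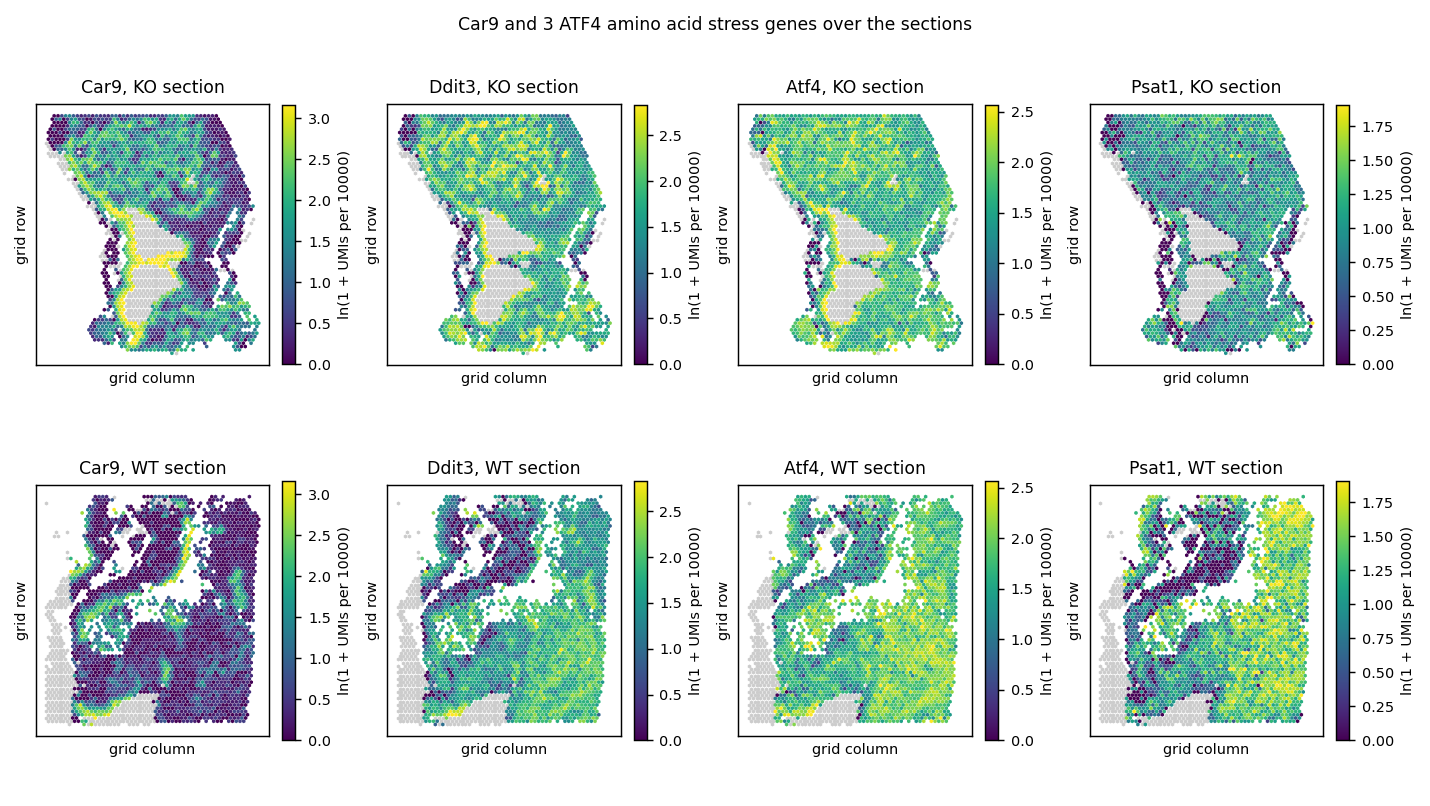
Maps of Car9, Ddit3, Atf4 and Psat1 over the spots of the KO (upper row) and WT (lower row) section, coloured by the natural log of 1 plus UMIs per 10000, with spots under 5000 UMIs in grey (356 in KO, 395 in WT). Axes are grid columns and rows, and colour scales are shared between sections for a gene and stop at its 99th percentile.

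Distance from the tissue edge separated the genes less than Car9 did. Melanoma-dense spots were grouped by grid steps to the nearest position without tissue or to the frame of the capture area, as 1 to 2, 3 to 5, 6 to 9 and 10 or more steps. Ddit3 was at 499.9, 486, 521 and 570.1 CPM from edge to centre in the KO section and at 459, 465, 513 and 552 CPM in the WT section. Its ratio of the innermost to the outermost group was 1.14 (1.10 to 1.18) in the KO and 1.20 (1.15 to 1.26) in the WT section. Phgdh ran the other way, at 136, 124, 115 and 113 CPM in the KO section and 228, 226, 223 and 209.7 CPM in the WT section.

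Inner over outer ratios of Trib3 were 1.15 in the KO and 1.18 in the WT section, those of Atf4 were 1.05 in both, and those of Asns 1.14 in the KO and 1.07 in the WT section. Psat1 was lower inside, at 0.896 in the KO and 0.894 in the WT section. Intervals of Sesn2 and Slc7a11 included 1 in both sections, and that of Chac1 in the KO section (1.06, 0.968 to 1.15). None of the 9 reached 1.5 in either section, against 1.08% of all genes in the KO and 1.8% in the WT section, and 0 of 9 lay at or below 1/1.5, against 7.28% and 2.99%. A ratio above 1 was found for 5 of 9 genes in the KO section, against 40.3% of all genes, and for 7 of 9 in the WT section, against 47.6%. In the upper quartile of melanocytic share the median log2 inner over outer ratio of the 9 genes was -0.054 in the KO section, against 0.07 over melanoma-dense spots, and 0.29 in the WT section, against 0.10. Car9 itself ran opposite ways, at 1.57 (1.498 to 1.64) in the KO and 0.640 (0.580 to 0.704) in the WT section.

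**Figure D5:**
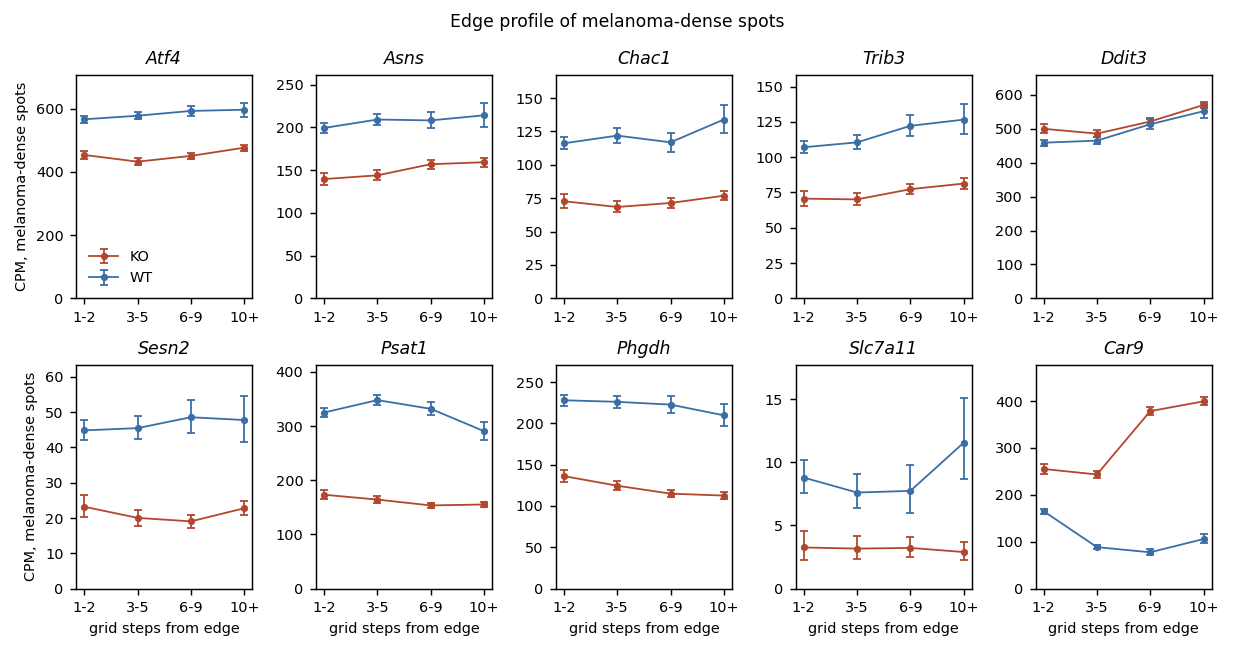
CPM of the 9 genes and Car9 in melanoma-dense spots by grid steps from the tissue edge, for the KO (red) and WT (blue) section, with exact Poisson 95% intervals. Lines of the 8 genes other than Ddit3 lie lower in the KO than in the WT section at every distance, and Car9 lies higher.

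Outside melanoma-dense spots the sections differed in direction for several genes. In the WT section Phgdh (1.68), Psat1 (1.65), Chac1 (1.80) and Asns (1.54) were at least 1.5 times as high in melanoma-dense as in the other spots, 4 of 9 genes against 6.47% of all genes. In the KO section 0 of 9 reached 1.5, against 4.46%, and Chac1 had the highest ratio at 1.28. Atf4 (0.852), Trib3 (0.836), Ddit3 (0.941) and Psat1 (0.924) were lower in melanoma-dense than in other KO spots, and higher in melanoma-dense spots of the WT section. Slc7a11 was lower in melanoma-dense spots of both sections, at 3.11 CPM in melanoma-dense and 9.44 CPM in other KO spots (ratio 0.329, 0.272 to 0.398), and at 8.47 and 16.5 CPM in the same WT classes (0.513, 0.453 to 0.581). A ratio of at most 1/1.5 occurred in 21.1% of genes in the KO and 22.4% in the WT section.

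From spot to spot some of the 9 genes varied together. Of their 36 pairs 31 had a positive correlation in the KO section, with a median r of 0.09, against 55.4% of all gene pairs with a median of 0.0044. In the WT section 35 pairs were positive, with a median r of 0.24, against 66.3% of all pairs with a median of 0.016. Among genes with at least 500 UMIs, as all of the 9 but Slc7a11 have in each section, 24 of the 28 pairs of those 8 and 61.9% of all pairs were positive in the KO section, and 28 of 28 and 74.3% in the WT section. Many KO pairs lay near 0, such as Atf4 with Psat1 (r = 0.04) and Chac1 with Phgdh (r = -0.0015). The closest pair was Atf4 with Ddit3 in the KO section (r = 0.60) and Trib3 with Ddit3 in the WT section (r = 0.52). Psat1 and Phgdh correlated at r = 0.15 in the KO and 0.39 in the WT section. Between Ddit3 and Psat1 r was -0.03 in the KO and 0.11 in the WT section, and between Ddit3 and Phgdh -0.06 in the KO and 0.23 in the WT section.

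Genes outside the 9 that were most like each of them were found by the mean r over both sections. At least 500 UMIs in each section were held by 8913 genes, from which the 9 and predicted-gene symbols were left out. For Ddit3 these were Vegfa (r = 0.75 in KO, 0.47 in WT), Ddit4 and Ero1l, the oxidase that helps disulfides form in the endoplasmic reticulum. Atf4 and Trib3 also had Vegfa as the nearest gene outside the 9, with Nupr1 among the top 3 of both. With Vegfa, r was 0.58 in the KO and 0.29 in the WT section for Atf4, and 0.56 and 0.35 for Trib3. Both were closer to Ddit3, a member, at 0.60 in the KO and 0.44 in the WT section for Atf4, and 0.58 and 0.52 for Trib3. Asns was nearest to Gars (r = 0.24 in KO, 0.46 in WT), the glycyl-tRNA synthetase, then Mthfd2 and Sars, the seryl-tRNA synthetase. Chac1 and Sesn2 were nearest to Sars, and Phgdh to Gars. Psat1 was nearest to Fkbp4, a co-chaperone, at r = 0.22 in the KO and 0.39 in the WT section. For Slc7a11 none of these genes outside the 9 exceeded a mean r of 0.15.

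The authors' deposited table gives Moran's I, a score of how alike neighbouring spots are, for 19339 genes in the KO and 19296 in the WT section, with medians of 0.0496 and 0.0614. In that table Phgdh had the highest value of the 9 genes in both sections, 0.386 in the KO (rank 868) and 0.573 in the WT section (rank 241). Psat1 had 0.378 in the KO and 0.534 in the WT section, and Asns 0.335 in the KO and 0.570 in the WT section, all by the authors' deposited table. There Atf4 had 0.258 in the KO and 0.417 in the WT section, and the lowest were Sesn2 (0.0827 in KO, 0.237 in WT) and Slc7a11 (0.0631 in KO, 0.177 in WT). All 9 genes, Ddit3 under both IDs, had lower values in the KO than in the WT section in the authors' deposited table, as did 57.5% of all gene IDs listed in both sections, and no test of this difference was made. Recomputed over melanoma-dense spots alone, Phgdh was at 0.0994 in the KO and 0.162 in the WT section. The IDs of Ddit3 led, at 0.362 and 0.380 in the KO and 0.385 and 0.329 in the WT section. Not all genes were lower in the KO section there. Atf4 was higher, at 0.270 in the KO and 0.208 in the WT section, as were Asns and Ddit3 ENSMUSG00000116429. Chac1 was near even, at 0.2065 in the KO and 0.2069 in the WT section. Trib3, Sesn2, Psat1, Phgdh, Slc7a11 and Ddit3 ENSMUSG00000025408 stayed lower in the KO section.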

How the data were processed

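The authors deposited UMI counts per gene and spot, whole numbers without normalization, with Space Ranger 2.1.0 named as the software per the file headers. The submitters' processing notes also name featureCounts and mm10, with no role for each. Spot rows and columns and the authors' deposited Moran's I, a score per gene and section, were used as given. IDs of a symbol were summed. The 9 genes, the gene lists and the comparisons were chosen with earlier results of these data known. Genes outside the 9 were named by rule: of each list the 3 with most UMIs and the highest and lowest ratio, and for each of the 9 the 3 most correlated genes. Col1a1, Hbb-bs, Ddit4 and Nupr1 fall under that rule. Ratios have exact conditional binomial intervals and CPM exact Poisson intervals, both at 95%. Genes needed 50 UMIs over the spots compared. Computations used Python 3.11.15, numpy 2.4.6 and scipy 1.17.1, and were tested on simulated data. TMM factors came from edgeR 4.0.16. The alternatives were other scalings, spot sets, spot weights, probe background and correlation measures. Reading Ddit3 from 1 ID, correlating with adjacent spots, the comparison beside low-UMI spots, and the shares over genes with at least 500 UMIs, over gene pairs and for Moran's I were added after seeing the data. Promoters and positions come from RefSeq (GRCm38.p6).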

Additional observations from a re-analysis of the deposited data

Results flagged for a closer look

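For 50 combinations of a gene (the 9 and Car9) and a contrast within sections, 8 had ratios on opposite sides of 1 in the KO and the WT section, with counting intervals that excluded 1 in both. These differences between sections were not tested. The contrasts were melanoma-dense over other spots, inner over outer, Car9-high over Car9-low, vessel-rich over vessel-poor, and beside low-UMI spots over other spots. Car9 between Car9-high and Car9-low spots is among the 50 and could not run opposite ways. In melanoma-dense over other spots Atf4 had 0.852 in the KO and 1.27 in the WT section, Trib3 0.836 in the KO and 1.48 in the WT section, Ddit3 0.941 in the KO and 1.33 in the WT section, and Psat1 0.924 in the KO and 1.65 in the WT section. Beside low-UMI spots over other spots Atf4 had 1.20 in the KO and 0.806 in the WT section, Trib3 1.41 in the KO and 0.631 in the WT section, and Ddit3 1.18 in the KO and 0.823 in the WT section. Car9 had an inner over outer ratio of 1.57 in the KO and 0.640 in the WT section.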

How the results depend on the processing

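No paired analysis was possible because each genotype has 1 section. With 1 section per genotype the KO over WT ratios have no replicate check, and whether depth limits them was not tested. Counts were lowest for Slc7a11, at 216 UMIs in KO and 433 UMIs in WT melanoma-dense spots, followed by Sesn2 at 1465 and 2351 UMIs. The median correlations over spots depended on depth and were weaker after thinning, as given below. Of 9 genes, 1 (Ddit3) had a KO over WT ratio above 1, and 0 did with TMM factors, with median-of-ratios factors or with Ddit3 read from ENSMUSG00000025408 only. The log2 ratio of Ddit3 was then -0.087, -0.112 and -0.23. The other 8 genes stayed below 1 under all 10 alternatives of scaling, spot set, spot weight and background tried for them. Their median log2 ratio with Ddit3, -0.72, was -0.94 with TMM factors, -0.97 with median-of-ratios factors, -0.65 with equal weight per spot, -0.50 over all spots and -0.56 in the upper quartile of melanocytic share. The median log2 inner over outer ratio, 0.07 in the KO section, was -0.054 in that upper quartile. The WT value of 0.10 became 0.29 in that quartile and 0.21 with equal weight per spot. The median r with Car9 in the KO section, 0.23, was 0.082 after thinning to 5000 UMIs per spot, which leaves fewer counts by construction. The WT value was 0.05, and -0.0015 with the mean of adjacent spots. The median r with vessel genes in the KO section, -0.20, was -0.035 after thinning and 0.044 over all spots. The WT value was -0.07, against -0.027 after thinning and 0.10 over all spots. Apart from thinning, the cause was not tested. Of 92 values of single genes under an alternative, 44 lay inside the 95% counting interval of the reported ratio, 45 outside it in the same direction, and 3, all of Ddit3, turned direction.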

Other observations

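Some neighbouring stress programmes were also read in melanoma-dense spots. Of 16 NRF2 and glutathione genes, which answer oxidative stress and include Slc7a11's partner Slc3a2, 11 had a KO over WT ratio below 1, 2 lay at or below 1/1.5 and 1 reached 1.5 (median log2 ratio -0.16). Srxn1, which repairs oxidised peroxiredoxins, was at 35.9 CPM in the KO and 63.9 CPM in the WT section, and Me1, malic enzyme, at 82.7 CPM in the KO and 52.6 CPM in the WT section. Of 10 p53 target genes 7 had a ratio below 1, and Aen, a nuclease induced by p53, was lowest at 0.579 (0.555 to 0.603). Of the 14500 genes with at least 50 UMIs 41.1% had a ratio below 1, 5.77% lay at or below 1/1.5 and 18.5% reached 1.5. The share below 1 was not computed for genes of similar depth. The 10 proliferation genes had a median log2 ratio of -0.04, with Mki67 at 626 CPM in the KO and 472 CPM in the WT section and Cdk1 at 451 CPM in the KO and 709 CPM in the WT section.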
